A study of Mus musculus with 20 samples.

Results

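Liver RNA was examined for 10 genes of tryptophan breakdown and NAD supply, out of the 45306 genes listed for 20 mice. The genes were chosen by symbol, as Tdo2, Afmid, Kmo, Kynu, Haao, Acmsd, Qprt, Nampt, Naprt and Nadsyn1, and they were picked from the pathway with earlier results of the 4 groups known. Their fold changes and adjusted p-values therefore describe the fit over all genes and are not an independent test of these genes. Liver is the main site at which dietary tryptophan is broken down. In the kynurenine route, Tdo2 (tryptophan 2,3-dioxygenase) opens the indole ring, Afmid removes the formyl group, and Kmo, Kynu and Haao carry kynurenine on to an unstable semialdehyde. This semialdehyde either closes by itself to quinolinate, which Qprt turns into a precursor of NAD, or is decarboxylated by Acmsd and leaves towards the glutarate pathway. Nampt recycles nicotinamide, Naprt uses nicotinic acid, and Nadsyn1 amidates the product of both the Qprt and the Naprt routes to NAD, the cosubstrate that Sirt2 and the other sirtuins consume.

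The study asked how loss of Sirt2 and intermittent cold alter liver metabolism. All mice were C57BL/6, 5 weeks old at the start, with 5 mice and 1 library per mouse in each group. The Control group was wild-type and unexposed, and the CE group was wild-type and spent 3 h of each day at 4 °C over 3 weeks. The Sirt2-/- group carried a whole-body deletion made with CRISPR-Cas9 against exons 5 to 7 and was unexposed, whereas the Sirt2-/-/CE group carried the same deletion and had the same cold exposure. The wild-type mice were purchased and were not described as littermates of the knockout mice, so that genotype and origin cannot be told apart. Which sex the mice were and the hour of tissue collection were not given in the sources used here.

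Total counts ranged from 35499796 to 53917339 per mouse, and no pair of libraries was alike within sampling noise. Sirt2 was between 40.2 and 56.2 CPM (counts scaled to library size, with edgeR's TMM factors) in the 10 wild-type mice and between 16.9 and 27.5 CPM in the 10 knockout mice, and the genotypes did not overlap. These are counts over the whole gene, which holds exons outside the deleted part, so they do not check the deletion itself, and the log2 fold change was -0.94 in Sirt2-/- against Control and -1.11 in Sirt2-/-/CE against CE. All 6 hepatocyte markers were detected, with a summed level between 42573 and 79047 FPKM (fragments scaled to gene length and library depth) in every mouse. The summed level of 4 kidney tubule markers did not pass 0.242 FPKM in any mouse, and 1 of them was at 0 throughout. Genes of the circadian clock differed widely between mice of some groups: Dbp, a clock output factor, was between 71.6 and 99.0 CPM in the Control group but between 0.325 and 66.8 CPM in the Sirt2-/- group. Among Control mice, Dbp, Tef, Per3 and Nr1d2 ranged at most 1.38-fold. Ciart (3.21-fold), Clock (2.55-fold) and Arntl (26.6-fold) ranged more widely there, and Npas2 was at 0 to 0.148 CPM. In bulk RNA, fewer cells of a type and less RNA per cell cannot be told apart.

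Per gene length, the tryptophan-opening enzyme had the highest level of the members. Tdo2 had a mean level of 502 FPKM over the 20 mice, with a range from 365 to 711 FPKM. Haao followed with 278 FPKM and a range from 201 to 349 FPKM, and neither range overlapped that of its neighbour in the order. Kmo (mean level 88.1 FPKM), Qprt (69.6 FPKM), Kynu (58.0 FPKM), Afmid (44.2 FPKM) and Naprt (39.3 FPKM) formed a middle group in which each neighbour's range overlapped the next. Kmo was above Qprt in 17 of 20 mice and Qprt above Kynu in 15 of 20, whereas Kynu was above Afmid in only 11 of 20, so that the last pair had no settled order over all mice. The orders varied by group. Kynu was above Afmid in 1 of 5 Control and 2 of 5 Sirt2-/-/CE mice, but in 4 of 5 CE and 4 of 5 Sirt2-/- mice. Qprt was below Kynu in 3 of 5 CE mice, and Afmid was below Naprt in 3 of 5 Sirt2-/- mice. Naprt was above Nampt in 20 of 20 mice. Nampt (18.6 FPKM) and Acmsd (13.6 FPKM) had no settled order over all mice either, with Nampt above Acmsd in 11 of 20 mice. By group this was 4 of 5 Control mice, 2 of 5 CE, 3 of 5 Sirt2-/- and 2 of 5 Sirt2-/-/CE mice. Nadsyn1 had the lowest mean at 6.11 FPKM. Acmsd was above Nadsyn1 in 15 of 20 mice with overlapping ranges, and in the Control group the order turned, with Acmsd below Nadsyn1 in 4 of 5 mice. Tdo2 and Haao were thus more abundant as RNA in every mouse than either the Acmsd exit or the amidation step. The FPKM values rest on the gene lengths of the authors.

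The members also differed in how steady they were among mice of one group. The standard deviation of log2 CPM within groups was 0.19 for Tdo2 and 0.19 for Haao, smaller than for all but 7.49% and 7.95% of the 15616 genes tested, for which the median was 0.43. It was 0.22 for Nadsyn1, 0.23 for Kmo, 0.24 for Naprt and 0.24 for Qprt. Afmid had 0.36 and Kynu 0.42, near the median of all genes. Nampt had 0.74 and Acmsd 0.84, above 77.0% and 82.1% of the genes tested. The 2 least steady members were thus the salvage enzyme and the exit enzyme, with 4.29-fold and 14.1-fold between the highest and lowest of all 20 mice. Within a group, the range of Nampt was from 1.25-fold in Control to 4.22-fold in Sirt2-/- mice, so that it was steady in the Control group. That of Acmsd was from 2.46-fold in Sirt2-/- to 11.9-fold in Control mice.

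In GENCODE vM21 on GRCm38, the genes lie on 8 chromosomes. Tdo2 (ENSMUSG00000028011) lies on chromosome 3 from 81957090 to 81976202 on the reverse strand, with 12 exons in its main transcript, and Haao (ENSMUSG00000000673) on chromosome 17 from 83831156 to 83847963 on the reverse strand, with 10 exons. Acmsd (ENSMUSG00000026348) is a forward-strand gene of 10 exons on chromosome 1, and Kmo (ENSMUSG00000039783) is on the same chromosome from 175620381 to 175662116. Kynu (ENSMUSG00000026866) spans 127387 bases of chromosome 2 from 43555329 to 43682715, the longest span of the 10, and Nampt (ENSMUSG00000020572) lies on chromosome 12 from 32819545 to 32853349, both on the forward strand. Qprt (ENSMUSG00000030674) and Nadsyn1 (ENSMUSG00000031090) lie apart on the reverse strand of chromosome 7, from 127107114 to 127122226 and from 143795584 to 143822849. Afmid (ENSMUSG00000017718) lies on chromosome 11 from 117825924 to 117839908, where 44.2% of its exon bases are also exon of Gm20708 on the same strand, whose mean level was above that of Nadsyn1. Naprt (ENSMUSG00000022574) lies on chromosome 15 from 75890956 to 75894481 and shares 11.8% of its exon bases with Eef1d on the same strand. The mean level of Eef1d, 50.3 FPKM, was above that of Naprt, 39.3 FPKM. How reads of shared exons were assigned was not given in the sources used here, so the values of Afmid and Naprt are uncertain to that extent. No other member had a near-identical gene, at 95% identity over at least 150 bases, outside its own locus.

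RefSeq promoters (GRCm38.p6, 250 bases before to 50 after the start) were used for 7 of the 10 members, namely Tdo2, Afmid, Kmo, Haao, Qprt, Nampt and Nadsyn1. They are shown for Tdo2, the most abundant member, for Haao, the member with an adjusted p under 0.05, and for Nampt, among the least steady members. Capitals mark matches on either strand to the TATA box TATAAA, the CAAT box CCAAT, the GC box GGGCGG bound by Sp factors, the E-box CACGTG bound by clock factors, the D-box TTATGTAA bound by Dbp and its relatives, or the nuclear receptor half-site AGGTCA. The windows are chr3:81975679-81975978 on the reverse strand for Tdo2, chr17:83846741-83847040 on the reverse strand for Haao and chr12:32820085-32820384 on the forward strand for Nampt.
Tdo2: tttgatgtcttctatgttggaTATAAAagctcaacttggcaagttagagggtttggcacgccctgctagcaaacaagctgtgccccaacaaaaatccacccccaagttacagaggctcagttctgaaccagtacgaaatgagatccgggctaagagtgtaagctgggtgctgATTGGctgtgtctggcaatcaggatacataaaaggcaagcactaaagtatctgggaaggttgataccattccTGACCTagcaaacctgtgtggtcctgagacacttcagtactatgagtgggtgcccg
Haao: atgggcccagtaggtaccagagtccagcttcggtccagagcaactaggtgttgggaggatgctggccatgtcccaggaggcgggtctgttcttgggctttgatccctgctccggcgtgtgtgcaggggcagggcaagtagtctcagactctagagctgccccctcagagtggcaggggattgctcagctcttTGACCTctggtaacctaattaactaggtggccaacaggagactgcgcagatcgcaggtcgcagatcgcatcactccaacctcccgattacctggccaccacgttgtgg
Nampt: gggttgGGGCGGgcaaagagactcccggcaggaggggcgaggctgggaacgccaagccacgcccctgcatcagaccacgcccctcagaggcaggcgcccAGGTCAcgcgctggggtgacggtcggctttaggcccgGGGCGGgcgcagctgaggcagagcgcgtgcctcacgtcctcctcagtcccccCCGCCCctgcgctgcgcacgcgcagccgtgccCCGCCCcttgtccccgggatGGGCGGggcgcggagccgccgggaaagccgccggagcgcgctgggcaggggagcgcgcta
The Nampt window is rich in G and C (76.3%) and holds 36 CG dinucleotides, more than 93.8% of all 32851 promoters, and it has 5 matches to GGGCGG, which 35.7% of promoters hold. Over all promoters the median was 52.7% G and C and 7 CG dinucleotides. AGGTCA was matched in all 3 windows shown and in none of the other 4 members used, and 16.3% of all promoters hold it. TATAAA (13.6% of promoters) and CCAAT (37.4%) were matched among members in the Tdo2 window alone. Neither CACGTG (7.15% of promoters) nor TTATGTAA (0.938%) was matched in any of the 7 windows. These matches describe letters in the windows and nothing more.

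**Figure D1:**
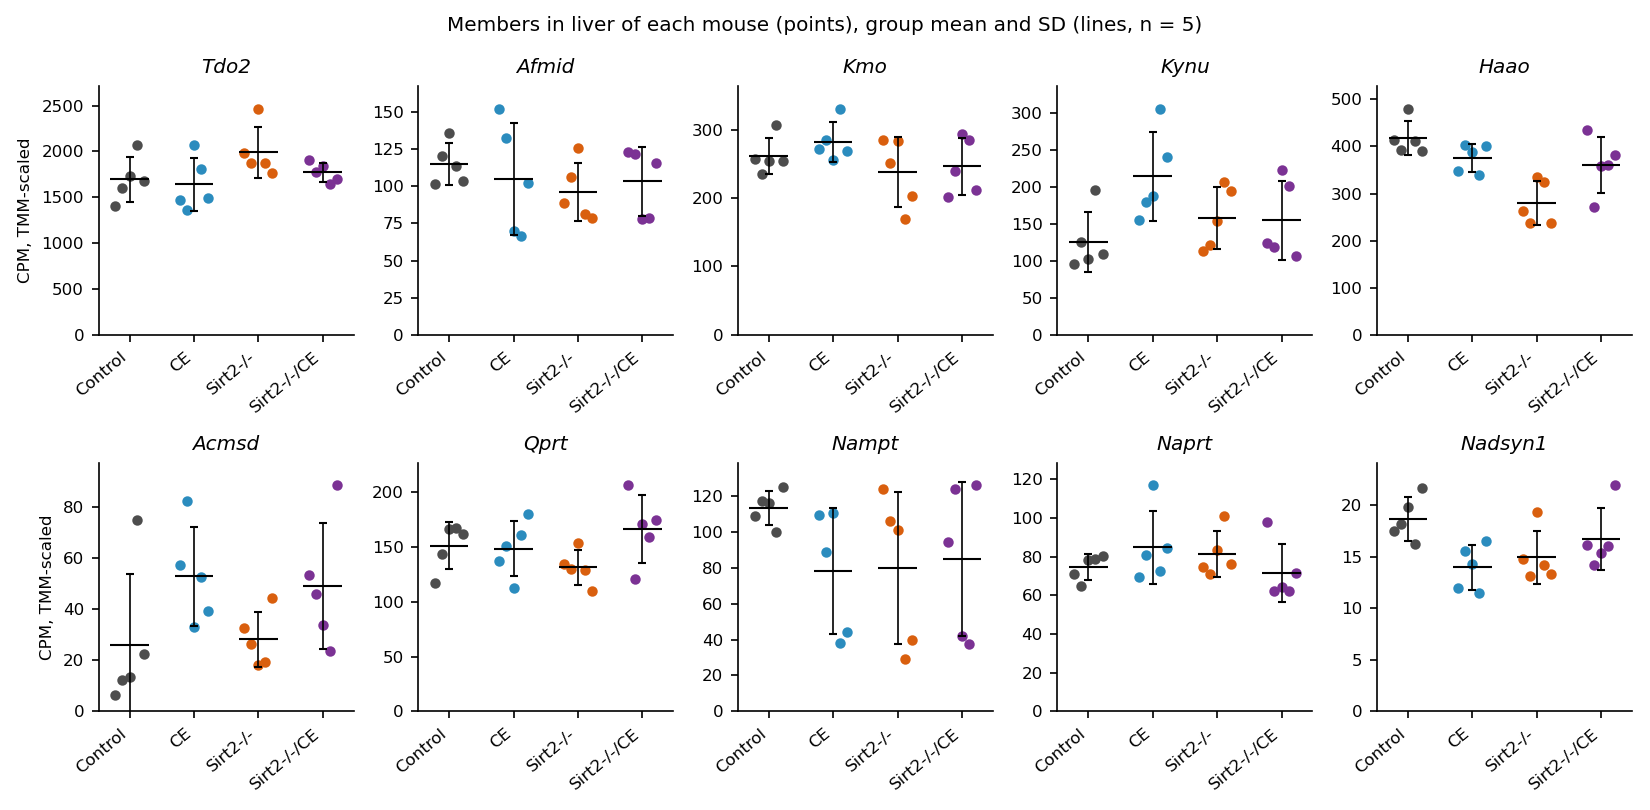
Each panel plots 1 gene in CPM (TMM-scaled, linear axis from 0) for each mouse of the 4 groups, with the group mean as a horizontal line and the SD as a bar (n = 5). The Sirt2-/- mice lie below all Control mice for Haao, Nampt falls into a low and a high set of mice outside the Control group, and 1 Control mouse lies far above the other Control mice for Acmsd, where the lower bar is cut at 0.

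Of the 10 members, 1 had an adjusted p under 0.05 in any comparison of the edgeR quasi-likelihood fit, namely Haao, which fell in Sirt2-/- against Control. It was 1 of 10 members there, against 0.89% of all genes tested, and at an unadjusted p under 0.05 the members numbered 2 of 10 (Haao and Nadsyn1, both lower) against 14.9% of all genes. In CE against Control 0 of 10 members passed (all genes 0.0064%), with 2 of 10 at an unadjusted p under 0.05, Kynu higher and Nadsyn1 lower, against 10.7%. In Sirt2-/-/CE against Sirt2-/-, 0 of 10 passed (all genes 0%), with Haao and Qprt higher at an unadjusted p under 0.05, 2 of 10 against 7.25%. In Sirt2-/-/CE against CE, 0 of 10 passed at either level (all genes 0.0128% adjusted and 6.09% unadjusted). For genotype averaged over both treatments 0 of 10 passed (all genes 0.186%) and 1 of 10 did so unadjusted (Haao lower, against 13.8%), and for cold averaged over both genotypes 0 of 10 passed (all genes 0%) and 1 of 10 unadjusted (Acmsd higher, against 9.48%). For the interaction of genotype and cold 0 of 10 passed (all genes 0%), and Haao, Kynu and Nadsyn1 did so unadjusted, 3 of 10 against 8.34%. Haao in unexposed knockout liver was thus the one member that this fit called.

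CE and Sirt2-/- were set against the same Control mice, so these comparisons are not independent of each other. Other tools gave few more calls. DESeq2 called Haao in Sirt2-/- against Control, 1 of 10 members against 3.97% of all genes to which it gave an adjusted p. It called 0 members in the other 6 comparisons, where it called 1.13% of all genes in CE against Control, 0.0449% in Sirt2-/-/CE against Sirt2-/-, 0.207% in Sirt2-/-/CE against CE, 1.99% in the genotype average, 0.507% in the cold average and 0.263% in the interaction. limma voom with quality weights called Haao in Sirt2-/- against Control (1 of 10 members, all genes 5.8%) and in the genotype average (1 of 10, all genes 1.68%), and Kynu and Acmsd in CE against Control (2 of 10, all genes 3.46%). It called 0 members in Sirt2-/-/CE against CE (all genes 0.0128%), in the cold average (0.307%) and in the other two comparisons (0%). In TMM-scaled CPM, the groups did not overlap for Haao in Sirt2-/- against Control, 1 of 10 members against 3.61% of all genes. They overlapped for every member in CE against Control, Sirt2-/-/CE against Sirt2-/- and Sirt2-/-/CE against CE, where 3.04%, 0.743% and 1.22% of all genes did not overlap. In FPKM, Tdo2 joined Haao in Sirt2-/- against Control (2 of 10 members, all genes 4.69%) and also did not overlap in Sirt2-/-/CE against Sirt2-/- (1 of 10, all genes 0.929%), whereas every member overlapped in CE against Control (all genes 2.62%) and in Sirt2-/-/CE against CE (all genes 1.56%). The median fitted log2 fold change of the members was -0.17 in Sirt2-/- against Control, where that of all genes was 0.02, and -0.04 in CE against Control, where that of all genes was -0.01. In the genotype average 8 of 10 members had a fitted value below 0, beside 7251 of all 15616 genes tested. This split depended in part on the scaling. It was 7 of 10 with upper-quartile scaling and 4 of 10 when counts were scaled by library size only. Scaling by library size only raised the median of all genes by 0.12 in the genotype average and by 0.14 in Sirt2-/- against Control.

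**Figure D2:**
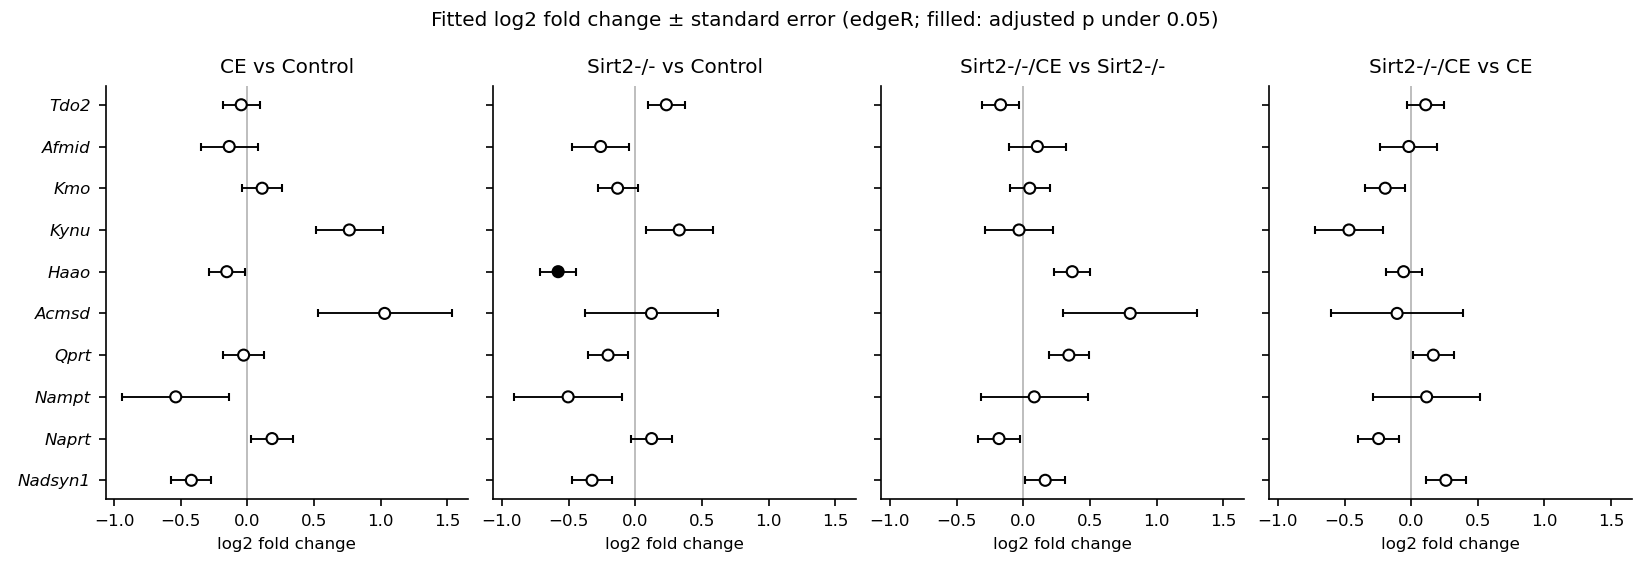
Points give the fitted log2 fold change of each gene and bars its standard error in the 4 comparisons of a pair of groups, with filled points for an adjusted p under 0.05 (edgeR). Haao at -0.58 in Sirt2-/- against Control is the filled point, and Acmsd and Nampt carry the widest bars, with standard errors of 0.40 to 0.50.

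At the entrance of the route, Tdo2 passed the test in no comparison, and whether its groups overlapped depended on the scale. It was between 1402 and 2066 CPM (median 1678) in the Control group, between 1361 and 2065 CPM (median 1497) in the CE group, between 1766 and 2467 CPM (median 1872) in the Sirt2-/- group and between 1641 and 1903 CPM (median 1770.5) in the Sirt2-/-/CE group. On this TMM scale all 4 ranges overlap. In FPKM, which rests on library size, every Sirt2-/- mouse (567 to 711 FPKM) was above every Control (411 to 542 FPKM), CE (365 to 518 FPKM) and Sirt2-/-/CE mouse (464 to 553 FPKM). Its log2 fold change was 0.23 ± 0.14 (standard error) in Sirt2-/- against Control and -0.05 ± 0.14 in CE against Control, with edgeR adjusted p-values of 0.461 and 0.958. In Sirt2-/- against Control it was 0.38 with scaling by library size only (edgeR adjusted p = 0.0902) and 0.39 by limma on log2(FPKM + 1) (adjusted p = 0.0856). Afmid, the formamidase, was between 66.7 and 152 CPM, and both ends of this range were CE mice. Kmo, which hydroxylates kynurenine, was between 169.8 and 331 CPM. Against Control its log2 fold change was 0.11 ± 0.15 in CE and -0.13 ± 0.15 in Sirt2-/- mice. Neither gene passed the test in any comparison. Kmo and Kynu are also expressed by macrophages, and the summed level of 6 Kupffer cell markers was 38.0 to 134 FPKM in the Control group, 34.7 to 157 FPKM in the CE group, 96.6 to 162 FPKM in the Sirt2-/- group and 119 to 163 FPKM in the Sirt2-/-/CE group. Their part in the values of Kmo and Kynu was not tested.

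Haao, the dioxygenase that forms the semialdehyde, was lower in unexposed Sirt2-/- liver than in Control liver. In order of replicate number, the Control mice had 415, 392, 480.3, 412 and 391 CPM and the Sirt2-/- mice had 263, 238, 336, 325 and 237 CPM. Every Sirt2-/- mouse was below every Control mouse, and the gap between the nearest mice, 336 and 391 CPM, was smaller than the range within either group. The log2 fold change was -0.58 ± 0.14, with an edgeR adjusted p of 0.0462. With cold, the same difference was not seen: CE mice had 347, 402, 388, 339.7 and 401 CPM and Sirt2-/-/CE mice had 436, 271, 359, 359.6 and 381 CPM, which overlap throughout, and the log2 fold change was -0.06 ± 0.14 (adjusted p = 0.973 by edgeR). The interaction was 0.52 ± 0.19 on the log2 scale with an edgeR adjusted p of 0.476, so that the genotype difference was not shown to differ between unexposed and exposed mice. In Sirt2-/-/CE against Sirt2-/-, the log2 fold change of Haao was 0.37 ± 0.14 (adjusted p = 0.574 by edgeR).

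The call on Haao was close to the threshold. It was kept when Sirt2-/- replicate 13 or Sirt2-/-/CE replicate 16 or 17 was left out and lost when any of the other 17 mice was left out, with edgeR adjusted p-values from 0.0221 to 0.153, while the log2 fold change remained between -0.65 and -0.53. Of 11 other alternatives 6 kept the call, with adjusted p-values from 0.00293 (limma voom) to 0.331 over all 11. A clock score was computed for each mouse as the mean centred log2 CPM of the Dbp side (Dbp with Nr1d2, Per3, Tef and Ciart) less that of the Arntl side (Arntl with Clock and Npas2). With this score as a covariate the log2 fold change of Haao was -0.54 (edgeR adjusted p = 0.321), and without the 4 mice of the lowest score it was -0.58 (edgeR adjusted p = 0.331). Sirt2, the targeted gene, also lost its call in both fits, with edgeR adjusted p-values of 0.159 and 0.215 against 0.0145 in the main fit. Its log2 fold change was -0.85 and -0.95 in these fits, against -0.94 in the main fit. The hepatocyte markers summed to between 52459.6 and 77530 FPKM in the Control group and between 42573 and 69588 FPKM in the Sirt2-/- group. The Kupffer cell markers summed to between 38.0 and 134 FPKM (median 81.3) in the Control group and between 96.6 and 162 FPKM (median 124) in the Sirt2-/- group. The part of either in the difference was not tested.

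Kynu, the kynureninase, and Nampt, the rate-limiting enzyme of NAD salvage and a known clock output, were the most opposed of the 45 pairs of members and were singled out for this after their values were seen. The Nampt values were 109, 117, 116, 99.8 and 125 CPM in Control mice and 109.5, 89.1, 111, 38.0 and 44.0 CPM in CE mice. They were 124, 106, 101, 29.4 and 39.9 CPM in Sirt2-/- mice and 94.2, 124, 42.0, 37.7 and 126 CPM in Sirt2-/-/CE mice. Each group except Control thus held 2 mice between 29.4 and 44.0 CPM, with no mouse of the study between 44.0 and 89.1 CPM. The Kynu values were 96.5, 126, 103, 196 and 109 CPM in Control mice, 156, 181, 189, 306 and 241 CPM in CE mice, 114, 122, 155, 207 and 195 CPM in Sirt2-/- mice, and 125, 119, 224, 202 and 106 CPM in Sirt2-/-/CE mice. The same 6 mice that were lowest in Nampt held the ranks 1 to 5 and 7 of Kynu from the top, and Control replicate 4, lowest in Nampt among the Control mice, held rank 6. Among the 6 mice themselves no opposite order was seen, since the mouse lowest in Nampt (29.4 CPM) had 207 CPM of Kynu and the mouse highest in Nampt (44.0 CPM) had 241 CPM. Because the mice fall into separate sets, no correlation over all mice is given.

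The clock genes did not place these 6 mice alike. The clock score was lowest in CE replicate 9 (-4.52), Sirt2-/- replicates 14 (-5.72) and 15 (-6.48) and Sirt2-/-/CE replicate 19 (-4.69), and all 4 were among the 6 mice low in Nampt. The remaining pair, CE replicate 10 and Sirt2-/-/CE replicate 18, had scores of 0.38 and -0.81, the first inside and the second below the range of the 14 mice high in Nampt, which ran from -0.10 to 3.36. Dbp was 4.32, 0.325, 0.359 and 2.46 CPM in the first 4 mice, but 65.4 and 48.1 CPM in the pair. Arntl, the positive arm of the clock, was 20.8, 15.5, 25.9 and 15.5 CPM in the first 4 mice, and 3.14 and 5.37 CPM in the pair. For Dbp, Arntl, Nr1d2, Per3 and Tef the pair lay within the range of the 14 mice. Ciart, a repressor of the clock, grouped the pair with the first 4 instead. It was 0.909, 0.125, 0.717 and 0.990 CPM in the first 4 mice and 5.03 and 5.09 CPM in the pair, all below the 6.34 to 33.2 CPM of the 14 mice. For Clock and Npas2, replicate 18 (50.7 and 0.528 CPM) was above all 14 mice, of which the highest had 46.3 and 0.148 CPM, whereas replicate 10 lay within their range. What part the clock had in Nampt and Kynu was not tested beyond its use as a covariate.

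**Figure D3:**
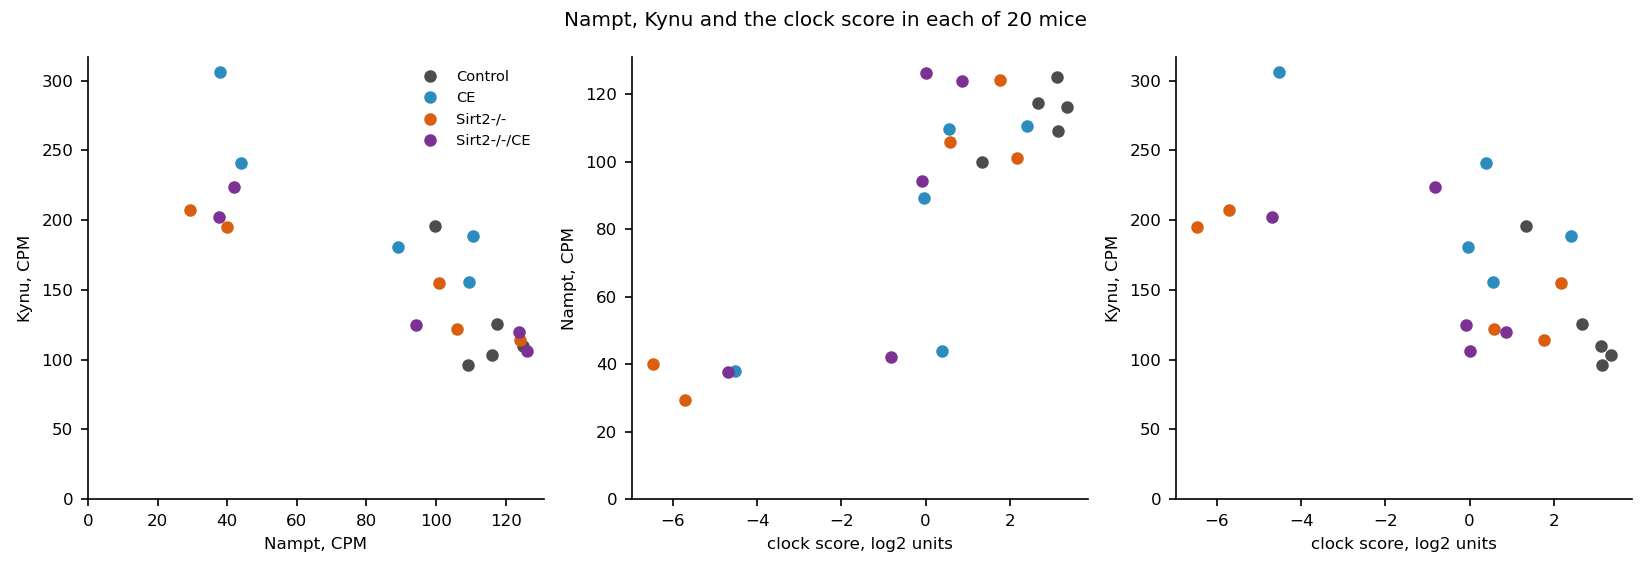
The left panel plots Kynu against Nampt in CPM for each of the 20 mice, and the middle and right panels plot Nampt and Kynu against the clock score (log2 units), with colours for the groups. There are 6 mice at 29.4 to 44.0 CPM of Nampt, of which 4 have clock scores below -4 and 2 have scores near 0.

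As group differences, neither gene passed. Against Control, the log2 fold change of Nampt was -0.54 ± 0.40 in CE and -0.50 ± 0.40 in Sirt2-/- mice, with edgeR adjusted p-values of 0.691 and 0.608. With the clock score as a covariate these values became 0.06 ± 0.25 and 0.28 ± 0.27, so that no difference in either direction was shown. The Control mice had clock scores from 1.33 to 3.36, towards the top of the 20 mice, so that score and group are partly confounded. For Kynu, the log2 fold change of CE against Control was 0.77 ± 0.25 (edgeR adjusted p = 0.271), which was 0.45 with the clock score as a covariate and 0.82 by limma voom, where it passed (adjusted p = 0.0400). In Sirt2-/- against Control Kynu had 0.33 ± 0.25 (edgeR adjusted p = 0.583), and with the covariate -0.13. In Sirt2-/-/CE against Sirt2-/- it had -0.03 ± 0.25, and the interaction, -0.80 ± 0.36, had an edgeR adjusted p of 0.564.

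At the branch point, Acmsd ranged most widely of all members in the Control group. The Control mice had 6.28, 12.3, 13.5, 74.8 and 22.2 CPM, an 11.9-fold range that rests on replicate 4. The CE mice had 57.1, 82.3, 32.8, 52.4 and 39.2 CPM, all above the other 4 Control mice and overlapping the group through replicate 4. The Sirt2-/- mice had 32.6, 26.4, 18.01, 19.2 and 44.3 CPM and the Sirt2-/-/CE mice 53.3, 46.0, 33.7, 23.8 and 88.5 CPM, which overlap. The log2 fold change of CE against Control was 1.03 ± 0.50 (edgeR adjusted p = 0.478). Without Control replicate 4 it was 1.96 with an edgeR adjusted p of 0.0385. By limma voom it was 2.07 with an adjusted p of 0.0146. The weights of that fit follow how far each library scatters around its fitted values and do not measure RNA quality. In Sirt2-/-/CE against Sirt2-/- it was 0.80 ± 0.50 (edgeR adjusted p = 0.786), which was 0.49 without Sirt2-/-/CE replicate 20 and 0.38 by limma voom. Averaged over both genotypes the cold value was 0.92 ± 0.35 (edgeR adjusted p = 0.434), and without Control replicate 4 it was 1.39 (edgeR adjusted p = 0.0550). In Sirt2-/- against Control, Acmsd had 0.12 ± 0.50, which was 1.04 without Control replicate 4 (edgeR adjusted p = 0.191).

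Control replicate 4 was also the highest Control mouse in Tdo2 (2066 CPM), Kynu (196 CPM) and Kmo (307 CPM). It was narrowly the highest in Qprt (167.6 CPM, with 166.6 CPM in replicate 3). It was the lowest in Nampt (99.8 CPM) and Nadsyn1 (16.3 CPM), and it had the lowest clock score of the Control mice at 1.33. Acmsd, Haao and Kmo are also expressed in kidney tubule, whose markers were at or near 0 in every mouse, replicate 4 included.

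Relative to Qprt, which acts on the ring-closed product of the same semialdehyde, Acmsd RNA was a minor part in each group. In FPKM, Acmsd was 4.04% to 33.6% of Qprt in Control mice (median 6.41%) and 16.4% to 40.9% in CE mice (median 24.5%). It was 8.83% to 30.3% in Sirt2-/- mice (median 15.3%) and 11.2% to 38.2% in Sirt2-/-/CE mice (median 19.4%). All groups overlap, and in no mouse did Acmsd reach the level of Qprt. On the log2 scale the ratio was -3.47 ± 1.16 (SD, n = 5) in Control mice and -1.95 ± 0.50 in CE mice, and -2.70 ± 0.68 and -2.29 ± 0.71 in Sirt2-/- and Sirt2-/-/CE mice. Leaving out Control replicate 4 moved the Control mean to -3.94. As both genes are members, this ratio is a description with no test. Most of its spread lay with Acmsd, since Qprt itself was between 109.8 and 207 CPM over all mice. The Qprt values were 135, 129.6, 154, 129 and 109.8 CPM in Sirt2-/- mice and 207, 121, 171, 159.6 and 175 CPM in Sirt2-/-/CE mice, and the log2 fold change between these groups was 0.34 ± 0.15 (adjusted p = 0.667 by edgeR).

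**Figure D4:**
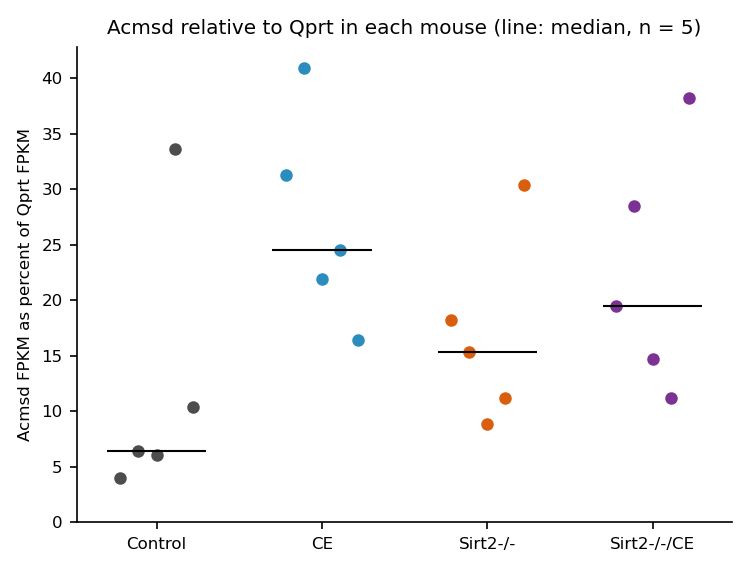
Points give Acmsd FPKM as a percent of Qprt FPKM in each mouse by group, with the group median as a line (n = 5). Of the Control mice 4 lie between 4.04% and 10.3% and replicate 4 at 33.6%, inside the range of the CE mice.

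Of the last steps, neither Naprt nor Nadsyn1 passed the test in any comparison. Naprt was between 64.6 and 80.5 CPM in the Control group, and its log2 fold changes in the 4 comparisons of a pair of groups lay between -0.24 and 0.19. For Nadsyn1, the Control mice had 17.5, 18.2, 19.9, 16.3 and 21.7 CPM and the CE mice 11.996, 15.6, 14.3, 11.5 and 16.6 CPM. The groups overlap by a single pair of mice, at 16.3 and 16.6 CPM. The log2 fold change was -0.42 ± 0.15 (edgeR adjusted p = 0.2999, and from 0.0746 to 0.592 over the alternatives). The Sirt2-/- mice had 14.8, 13.1, 19.3, 14.2 and 13.3 CPM and the Sirt2-/-/CE mice 16.2, 14.2, 15.4, 16.1 and 22.0 CPM. Against Control, Sirt2-/- had -0.32 ± 0.15 (edgeR adjusted p = 0.310). With the clock score as a covariate, the value against Control was -0.32 in CE and -0.18 in Sirt2-/- mice. The interaction of 0.58 ± 0.21 had an edgeR adjusted p of 0.466.

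Around the members, 47 further genes of tryptophan and NAD metabolism were listed, of which 44 could be tested. By edgeR 0 of 44 passed in any of the 7 comparisons, and at an unadjusted p under 0.05 there were 10 in CE against Control (6 higher, 4 lower), or 22.7% against 10.7% of all genes. In Sirt2-/- against Control there were 9 (20.5% against 14.9%), in Sirt2-/-/CE against Sirt2-/- 5 (11.4% against 7.25%), and in Sirt2-/-/CE against CE 5 (11.4% against 6.09%). The genotype average had 8 (18.2% against 13.8%), the cold average 10 (22.7% against 9.48%) and the interaction 4 (9.09% against 8.34%). DESeq2 called 1 of 44 in CE against Control (all genes 1.13%) and 1 of 44 in the cold average (all genes 0.507%). limma voom called 4 of 44 in CE against Control (all genes 3.46%) and 2 of 44 in Sirt2-/- against Control (all genes 5.8%). In TMM-scaled CPM, the groups did not overlap for 4 of 44 in CE against Control (all genes 3.04%) and 1 of 44 in Sirt2-/-/CE against Sirt2-/- (all genes 0.743%). They overlapped for all 44 in Sirt2-/- against Control (all genes 3.61% without overlap) and in Sirt2-/-/CE against CE (1.22%). The median log2 fold change of the 44 genes was -0.05 in CE and -0.02 in Sirt2-/- against Control, beside -0.01 and 0.02 for all genes.

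In CE against Control, the listed gene with the smallest p was Slc16a10, an aromatic amino acid transporter that carries tryptophan. It was between 87.9 and 139.8 CPM in Control mice and between 131.7 and 221 CPM in CE mice. Its log2 fold change was 0.79 ± 0.20 (edgeR adjusted p = 0.183, and from 0.0110 to 0.390 over the alternatives), and DESeq2, limma voom, the fit with the clock score and the fit without Control replicate 4 called it. Nmnat3, a mitochondrial enzyme of the last step to NAD, was lower in every CE mouse (3.09 to 3.82 CPM) than in every Control mouse (4.58 to 6.80 CPM). Its log2 fold change was -0.65 ± 0.19 (adjusted p = 0.215 by edgeR), and limma voom called it. limma voom also called Pnp (purine nucleoside phosphorylase) and Nnmt, which methylates nicotinamide for disposal, both higher in CE, and Nmrk1 (nicotinamide riboside kinase) and Sirt3, both lower in Sirt2-/- than in Control, 4 genes outside the edgeR calls that were named after their values were seen. In CE against Control the log2 fold change was 0.83 ± 0.29 for Pnp and 1.08 ± 0.47 for Nnmt (edgeR adjusted p = 0.297 and 0.418), which became 0.42 and 1.10 with the clock score as a covariate. In Sirt2-/- against Control it was -0.91 ± 0.39 for Nmrk1 and -0.48 ± 0.18 for Sirt3 (edgeR adjusted p = 0.265 and 0.190), which became -0.46 and -0.23 with that covariate.

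Kyat3, an aminotransferase that diverts kynurenine to kynurenic acid, was between 153 and 194 CPM in Control mice and between 213 and 262 CPM in CE mice. The knockout groups overlapped, with 136 to 228 CPM in Sirt2-/- and 177 to 342 CPM in Sirt2-/-/CE mice. Its value for cold averaged over both genotypes was 0.46 ± 0.12 on the log2 scale (edgeR adjusted p = 0.255). Parp10, a mono-ADP-ribosyltransferase that consumes NAD, had -0.57 ± 0.14 in the same average (edgeR adjusted p = 0.229) and was called by DESeq2. Parp3, another NAD consumer, was between 9.68 and 16.99 CPM in Sirt2-/-/CE mice and between 17.2 and 22.4 CPM in Sirt2-/- mice, but in FPKM these groups overlapped. They differed by -0.55 ± 0.14 on the log2 scale (adjusted p = 0.503 by edgeR). Nt5e and Pnp, of the nucleoside routes, had 1.27 ± 0.43 and 0.86 ± 0.29 in Sirt2-/- against Control (edgeR adjusted p = 0.154 and 0.161), which fell to 0.33 and 0.11 with the clock score as a covariate. Cd38, an NAD glycohydrolase, had 0.58 ± 0.21 in the genotype average (edgeR adjusted p = 0.226), and Nmnat1, the nuclear enzyme of the last step, had an interaction of 0.61 ± 0.19 (edgeR adjusted p = 0.395).

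The genes whose log2 CPM ran most like Haao over the 20 mice, among 10581 candidates of at least 1 FPKM, were Qdpr, which regenerates tetrahydrobiopterin (Pearson r = 0.91), Il18 (r = 0.90) and Nit2, an omega-amidase (r = 0.90). Within groups these values were 0.82, 0.74 and 0.83. For Acmsd they were Prickle3 (r = 0.86), Rbm12b1 (r = 0.83) and a gene predicted by the authors (r = 0.82). These likenesses were taken as the highest of many and come from the same libraries, so they are a description only.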

How the data were processed

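Liver RNA of 20 mice (5 per group) was sequenced after oligo(dT) enrichment and random-hexamer priming on an Illumina NovaSeq instrument. The authors deposited, per gene and mouse, a read count without normalization and an FPKM value scaled to gene length and depth. The submitters' processing notes name the build mm10. The aligner, counter and use of strand were not given in the sources used here. Of the lines, 9 held no gene and were left out, and 0 columns were left unmapped. Groups were taken from the labels. Mice are the replicates, and p-values measure the spread between these mice.

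Counts were fitted in R 4.3.3 with edgeR 4.0.16 (quasi-likelihood in its older form, TMM, two-sided) over all 4 groups. The filter (minimum count 10, total 15) kept 15616 genes, among them all 10 members and at least 99.9% of each library's counts, and p-values were adjusted over them by Benjamini-Hochberg. The code was tested on simulated data. Depths of 35499796 to 53917339 counts leave the spread between mice as the main error. Log2 CPM used a prior count of 2, and the Acmsd to Qprt ratio log2(FPKM + 0.1).

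Alternatives were DESeq2 1.42.0, limma 3.58.1 (voom with quality weights, or log2(FPKM + 1)), upper-quartile or library-size scaling, no filter, at least 10 counts in every library, only the groups compared, the clock score as covariate and each mouse left out. The newer edgeR form and leaving out the 4 mice of lowest clock score were added after the data were seen. Members, lists and comparisons were chosen with earlier results of these data known. Named were all members, Sirt2, clock genes, listed pathway genes with an adjusted p under 0.05 or among the 2 smallest p of a comparison, and the 3 genes most like the member with the largest genotype and the largest cold value. Positions came from GENCODE vM21, shared sequence from BLAST+ 2.17.0, promoters from RefSeq (GRCm38.p6; not every member's promoter is reported here), and figures from matplotlib 3.10.9 under Python 3.11.15.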

Additional observations from a re-analysis of the deposited data

Results flagged for a closer look

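Of 40 sets of 5 mice (10 members in 4 groups), 5 held a mouse that stood apart in CPM and 1 in log2 CPM, and chance sets apart about 1 in 20 such sets. On both scales it was Haao, at 480.3 CPM in Control replicate 3 against 391 to 415 CPM in the other Control mice, a gap of 0.735 of the group's range in CPM and 0.715 in log2 CPM. Without this mouse the log2 fold change of Haao in Sirt2-/- against Control was -0.53 (edgeR adjusted p = 0.130). The other 4 stood apart in CPM alone. Acmsd was 74.8 CPM in Control replicate 4, against 6.28 to 22.2 CPM in the other Control mice. Naprt was 97.8 CPM in Sirt2-/-/CE replicate 16, against 62.0 to 71.5 CPM in the rest of its group. Nadsyn1 was 19.3 CPM in Sirt2-/- replicate 13, against 13.1 to 14.8 CPM, and 21.97 CPM in Sirt2-/-/CE replicate 20, against 14.2 to 16.2 CPM.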

How the results depend on the processing

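No paired analysis was possible because each of the 20 mice has a replicate number of its own and the 4 groups share none. For members in CE against Control, limma voom gave 2 calls in place of 0, and leaving out a mouse gave 0 to 1 (Acmsd, without Control replicate 4). For members in Sirt2-/- against Control, the 1 call (Haao) became 0 with upper-quartile scaling, no filter, only the 2 groups compared, the clock score as a covariate and without the 4 mice of lowest score, and 0 to 1 when a mouse was left out. limma voom gave 1 call in the genotype average in place of 0. For the other pathway genes, CE against Control gave 1 call by DESeq2, 4 by limma voom, 1 with the clock score and 0 to 1 without a mouse, Sirt2-/- against Control gave 2 by limma voom, and the cold average gave 1 by DESeq2, each in place of 0. The cause was not tested. Of 2140 refitted member fold changes 0 that were called turned direction, 22 lost and 4 gained a call, and 9 moved by more than the spread between mice. The mean log2 ratio of Acmsd to Qprt moved by less than 1 SD in 24 of 24 alternatives.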
